A study of Mus musculus with 2 samples.

Results

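The 10 immediate early genes Fos, Fosb, Jun, Junb, Jund, Egr1, Atf3, Ier2, Zfp36 and Dusp1 were followed through the cell classes of the postnatal mouse molar and compared between a macrophage-depleted and a control sample. They were chosen by name, and each symbol matched 1 of the 34285 gene rows in both samples. Immediate early genes are switched on within minutes of a stimulus without new protein synthesis, because the transcription factors that act on their promoters, such as serum response factor and CREB, are already present and are activated by kinases. Fos and Jun proteins then pair through leucine zippers to form AP-1, while Zfp36 and Dusp1 encode proteins that switch the response off. In skeletal and dental tissue AP-1 is known for its part in osteoblasts, ligament cells and osteoclasts. The same genes are also known to be induced by enzymatic dissociation of tissue at warm temperature.

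Promoter windows of 4 members are printed because they hold letters of response elements known from early genes. The sequences are RefSeq's on GRCm38.p6, each 300 bases from 250 before to 50 after the annotated start, read 5′ to 3′ on the gene's strand. Fos lies at chr12:85473640-85473939 on the plus strand, Atf3 at chr1:191183284-191183583, Zfp36 at chr7:28379179-28379478 and Dusp1 at chr17:26508423-26508722, these 3 on the minus strand. Capitals mark the cAMP response element TGACGTCA or its core TGACG on either strand, the TATA box TATAAA on either strand, and the CArG box bound by serum response factor.
Fos: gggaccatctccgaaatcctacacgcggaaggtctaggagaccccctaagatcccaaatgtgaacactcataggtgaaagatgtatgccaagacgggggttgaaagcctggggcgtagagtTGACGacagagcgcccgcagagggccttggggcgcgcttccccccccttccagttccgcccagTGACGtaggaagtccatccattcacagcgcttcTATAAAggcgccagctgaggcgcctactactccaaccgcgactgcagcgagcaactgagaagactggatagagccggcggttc
Atf3: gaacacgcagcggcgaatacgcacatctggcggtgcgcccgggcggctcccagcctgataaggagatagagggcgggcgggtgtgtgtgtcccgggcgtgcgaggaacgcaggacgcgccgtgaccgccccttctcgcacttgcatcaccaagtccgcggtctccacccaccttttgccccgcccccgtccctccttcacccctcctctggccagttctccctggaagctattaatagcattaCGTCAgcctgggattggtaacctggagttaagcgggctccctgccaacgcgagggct
Zfp36: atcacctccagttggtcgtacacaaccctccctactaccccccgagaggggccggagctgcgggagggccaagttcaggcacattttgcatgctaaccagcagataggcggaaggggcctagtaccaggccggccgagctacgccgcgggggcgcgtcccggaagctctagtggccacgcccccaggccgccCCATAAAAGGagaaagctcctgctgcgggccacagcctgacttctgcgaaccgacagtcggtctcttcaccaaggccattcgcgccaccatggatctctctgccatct
Dusp1: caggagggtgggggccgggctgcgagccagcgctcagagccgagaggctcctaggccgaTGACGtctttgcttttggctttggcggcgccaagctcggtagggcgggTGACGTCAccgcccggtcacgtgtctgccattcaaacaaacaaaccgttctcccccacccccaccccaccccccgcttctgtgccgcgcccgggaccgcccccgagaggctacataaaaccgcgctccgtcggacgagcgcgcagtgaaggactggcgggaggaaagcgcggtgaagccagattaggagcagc
A window was given for 8 of the 10 members, all but Egr1 and Ier2. The core TGACG stood in 5 of the 8 windows (Fos, Fosb, Junb, Atf3 and Dusp1) and in 20.8% of all 32851 windows. The full element TGACGTCA, which contains the core, stood only in the Dusp1 window among the 8 and in 1.79% of all. The CArG box stood only in the Zfp36 window among the 8 and in 1.63% of all. Elements more than 250 bases before the start, in Fos or any other member, were not searched. The TATA box letters were present in the Fos and Junb windows and in 13.6% of all. They began at −33 from the annotated start in Fos and at 0, the start itself, in Junb. The AP-1 element TGANTCA, searched on both strands, stood in 0 of the 8 windows and in 7.81% of all. That pattern does not match longer forms, such as the letters TGACATCA in the Jun window. Variant sites were therefore not counted, and the 0 does not show that they are absent. These are matches of letters in a short window and do not show that a factor bound there.

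The cells came from lower first molars and neighbouring tissue of C57BL/6J pups at PN15.5. Mice of the Lipo-Clo group had been injected intraperitoneally with clodronate liposomes, which kill phagocytes that take them up, at 40 μg/g, first on PN3.5, again on PN6.5 and PN9.5 and last on PN12.5, and Lipo-PBS mice with vehicle liposomes on the same days. Both samples shared 30 minutes of digestion at 37 °C in 4 mg/mL Dispase and 2 mg/mL Collagenase I and a 40 μm strainer, and were run on the 10x Genomics platform. Each condition is 1 library and the number of mice in it is not given in the sources used here, so no difference between conditions could be tested. Intraperitoneal injection is not directed at the tooth, which limits the group as a model of local depletion.

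After filtering, 8254 Lipo-Clo and 8261 Lipo-PBS cells remained, with 26852423 and 25831678 unique molecular identifiers (UMIs). Clustering without the members gave 26 clusters, of which 25 were named from marker genes and made up 12 classes, each class being "like" its name only as far as these markers go. The class called monocyte or dendritic, led by Cd74, Ms4a6c and Wfdc17, carried 5 markers of that name beside 6 neutrophil, 5 macrophage and 7 cycling markers. An unnamed cluster of 39 Lipo-Clo and 637 Lipo-PBS cells carried markers of several lineages and was kept apart. The libraries also differed as a whole: mitochondrial UMIs made up 0.370% of the Lipo-Clo and 1.73% of the Lipo-PBS total, and the nuclear RNA Malat1 was lower in Lipo-Clo in all 12 classes. Between the kept cells of both libraries 23 cell barcodes were shared, and how many would be shared at random was not computed. Levels below are CPM, the UMIs of a gene per 1000000 UMIs of the class and library. Differences are log2 ratios of Lipo-Clo over Lipo-PBS with the exact 95% interval for a ratio of 2 counts, which covers counting error only, and a difference is called resolved when that interval leaves out 0.

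The members together were highest in macrophages, and lowest in erythroid cells and neutrophils, in both libraries. Summed over the 10 genes, macrophages held 10654 CPM in Lipo-Clo against 11773 CPM in Lipo-PBS. Dental mesenchyme, the largest class with 4072 and 3863 cells, followed with 6945 and 8097 CPM. Perivascular cells (6249 and 6483 CPM), glia (5928 and 6372 CPM) and T or NK cells (6590 and 6286 CPM) were among the next, in an order that differed between the libraries. In Lipo-PBS the monocyte or dendritic class (6337 CPM) also lay above T or NK cells. Erythroid cells, which should hold little of these RNAs, had 2063 and 3395 CPM (−0.72), a difference that turned to 0.70 when every deposited cell was kept. Within that class the cluster led by the erythroid genes Ahsp, Hemgn and Cldn13 had 1275 and 1345 CPM, the lowest of any cluster.

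**Figure D1:**
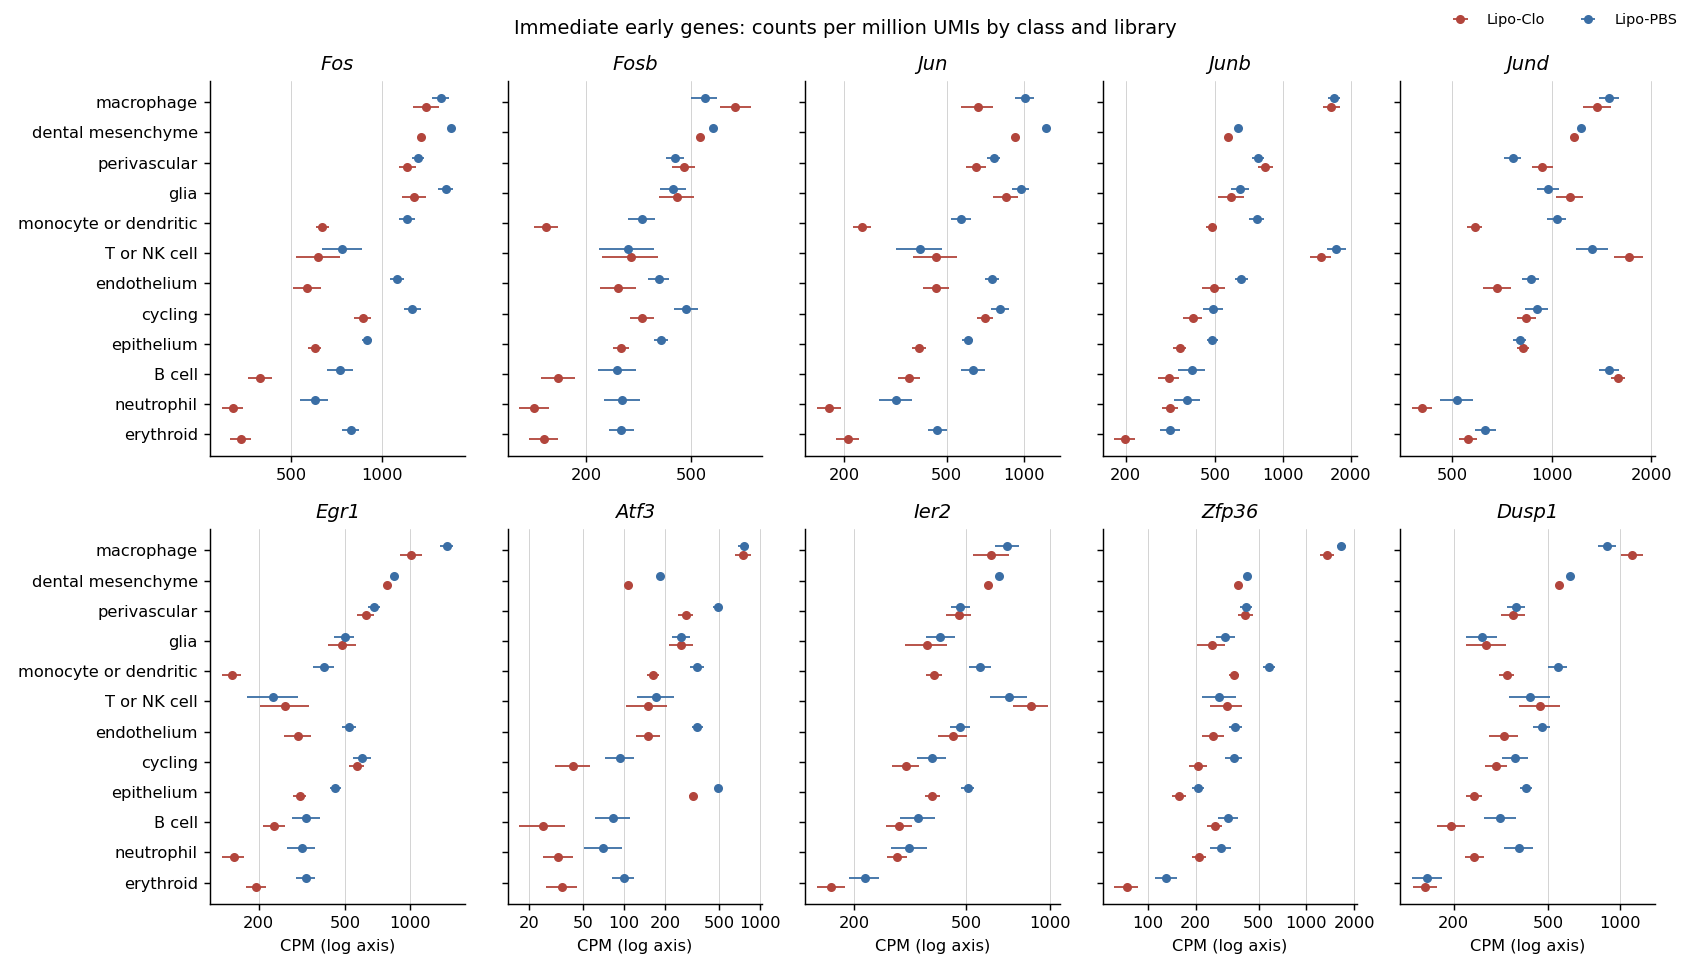
Level of each of the 10 genes (CPM, log axis) in 12 cell classes, with 1 point per library (red, Lipo-Clo; blue, Lipo-PBS) and the exact 95% Poisson interval as a bar. Macrophages hold the highest Zfp36, Egr1, Atf3 and Dusp1 in both libraries, and Lipo-PBS points lie to the right of Lipo-Clo points in most rows.

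The summed members were lower in Lipo-Clo in 11 of the 12 classes and not resolved in T or NK cells (0.07, −0.04 to 0.17). They were at least 1.5-fold lower in 4 classes: monocyte or dendritic (3461 against 6337 CPM, −0.87), erythroid (−0.72), neutrophil (2271 against 3447 CPM, −0.60) and endothelium (3943 against 5929 CPM, −0.59). No class was 1.5-fold higher. Among the 11 classes with a lower sum, the smallest differences were in perivascular cells (−0.053, −0.103 to −0.003) and glia (−0.10). Over the alternative settings the sum rose to −0.00045 in perivascular cells and to −0.0063 in B cells. The number of classes past 1.5-fold lower depended on the processing: it was 1 with TMM scaling, with coarser clusters or with the listed genes used for clustering, and 2 with doublets kept, with every cell kept or with cells thinned to 1000 UMIs. Over the 120 pairs of member and class, 103 ratios were negative. Among all genes in use, negative ratios numbered 1928 of 2750 in neutrophils, the largest share of any class. The smallest share was 1518 of 3454 in perivascular cells. In 81 pairs the member was lower beyond counting error, in 5 it was higher and in 34 it was not resolved. It was past 1.5-fold lower in 39 pairs and past 1.5-fold higher in 0. The counts beyond counting error and past 1.5-fold are set below, class by class, beside their shares among all genes in use. A smaller difference is resolved in a gene with more UMIs, and the members were not compared with genes of like UMI count. The shares beyond counting error are therefore not a matched background. Genes in use are those detected in 10% or more of a class's cells in either library.

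The blood and immune classes differed among themselves. In macrophages, 1 member was past 1.5-fold lower (all genes in use: 18.9% lower, 11.6% higher), and 3 were lower and 2 higher beyond counting error (all genes: 9.86% and 11.7%). In the monocyte or dendritic class, 9 members were past 1.5-fold lower (all genes in use: 29.2% lower, 16.8% higher), and 10 were lower and 0 higher beyond counting error (all genes: 30.7% and 21.8%). In neutrophils, 6 members were past 1.5-fold lower (all genes in use: 31.1% lower, 5.24% higher), and 9 were lower and 0 higher beyond counting error (all genes: 37.4% and 8.18%). In B cells, where Atf3 was not in use, 4 of the other 9 members were past 1.5-fold lower (all genes in use: 17.3% lower, 10.2% higher), and 7 were lower and 0 higher beyond counting error (all genes: 21.0% and 21.5%). In T or NK cells, 0 members were past 1.5-fold lower (all genes in use: 19.6% lower, 17.0% higher), and 1 was lower and 1 higher beyond counting error (all genes: 8.07% and 9.99%). In erythroid cells, 7 members were past 1.5-fold lower (all genes in use: 18.0% lower, 10.5% higher), and 9 were lower and 0 higher beyond counting error (all genes: 23.2% and 20.6%). The monocyte or dendritic and erythroid classes stood farthest above their background. The erythroid result depended on the processing. Its summed ratio of −0.72 moved to −0.22 with the same mixture of clusters in both libraries, and to 0.70 with every deposited cell kept. It moved to −0.96 in cells with few UMIs from mesenchymal markers. The Ahsp-led cluster (326 Lipo-Clo and 150 Lipo-PBS cells) had −0.08, not resolved, and the Hbb-bt-led cluster (115 and 190 cells) −0.30. In macrophages and T or NK cells the shares past 1.5-fold lower lay below those of all genes in use, while the shares lower beyond counting error did not.

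Among the tissue classes and cycling cells, the number of members past 1.5-fold lower ran from 0 to 4. In dental mesenchyme, 1 member was past 1.5-fold lower (all genes in use: 4.97% lower, 0.746% higher), and 10 were lower and 0 higher beyond counting error (all genes: 36.2% and 35.6%). In epithelium, 3 members were past 1.5-fold lower (all genes in use: 7.69% lower, 9.65% higher), and 9 were lower and 0 higher beyond counting error (all genes: 20.7% and 22.9%). In endothelium, 4 members were past 1.5-fold lower (all genes in use: 7.85% lower, 6.84% higher), and 9 were lower and 0 higher beyond counting error (all genes: 10.5% and 14.7%). In perivascular cells, 1 member was past 1.5-fold lower (all genes in use: 5.33% lower, 6.05% higher), and 3 were lower and 1 higher beyond counting error (all genes: 9.58% and 21.5%). In glia, 0 members were past 1.5-fold lower (all genes in use: 14.8% lower, 8.81% higher), and 2 were lower and 1 higher beyond counting error (all genes: 10.7% and 13.7%). In cycling cells, 2 members were past 1.5-fold lower (all genes in use: 1004 of 6493 genes lower, 12.7% higher), and 8 were lower and 0 higher beyond counting error (all genes: 13.1% and 15.6%). The count of 10 lower members in mesenchyme depended on the mixture of its clusters, and 5 of them turned to positive ratios when both libraries were given the same mixture (Fosb 0.064, Jund 0.16, Egr1 0.025, Ier2 0.066 and Dusp1 0.074).

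These class values depended on the mixture of clusters inside a class. When the clusters of a class were given equal proportions in the 2 libraries, an alternative added after the data had been seen, the summed ratio was −0.27 in endothelium, −0.21 in epithelium and −0.22 in erythroid cells, and only the monocyte or dendritic and neutrophil classes, which are 1 cluster each, stayed past 1.5-fold. In endothelium the cluster led by Emcn, Flt1 and Cdh5 had −0.34, with 370 Lipo-Clo and 382 Lipo-PBS cells. The other, led by Ccl21a, Mmrn1 and Lyve1, had a higher level and −0.22, with 31 and 147 cells. The weighting could change only the 5 classes that hold more than 1 cluster, since the other 7 are 1 cluster each. In those 5 (B cells, mesenchyme, endothelium, epithelium and erythroid cells) the sum was still negative, with −0.25 in B cells and −0.03 in mesenchyme. Fos, Jun, Junb, Atf3 and Zfp36 were negative in all 5, and Jund was positive in all 5. Fosb and Egr1 were positive in mesenchyme, Ier2 in mesenchyme and endothelium, and Dusp1 in mesenchyme and erythroid cells.

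**Figure D2:**
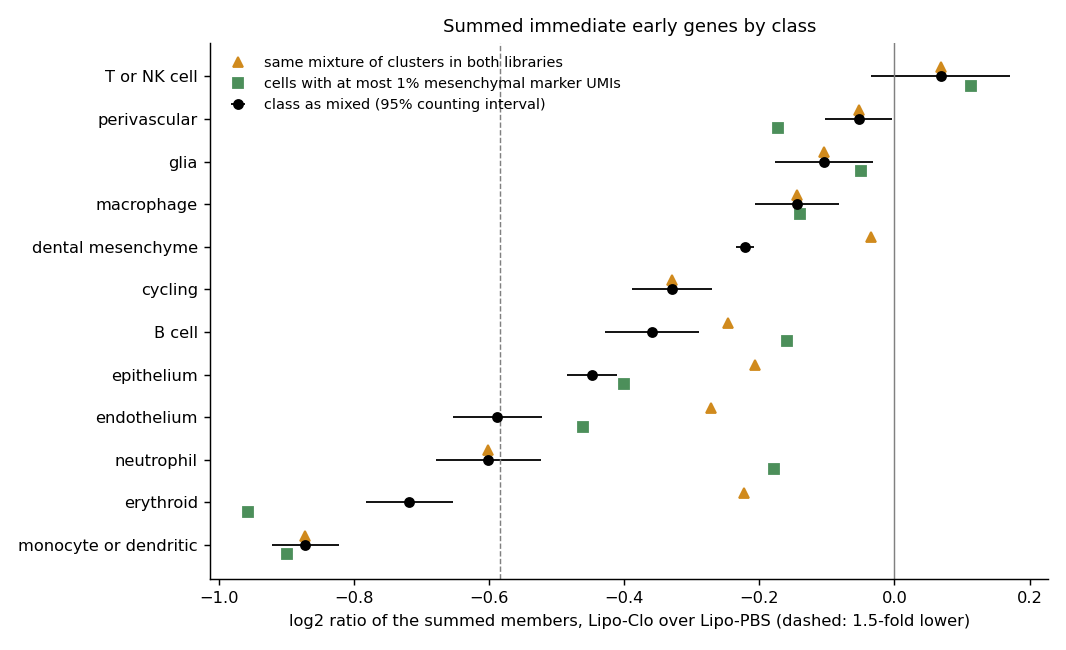
Log2 ratio of the summed members in each class, with the 95% counting interval as a bar (black), after weighting both libraries to the same clusters (orange triangles) and in cells with at most 1% of UMIs from 8 mesenchymal markers (green squares; not drawn for mesenchyme, and not available for cycling cells). The monocyte or dendritic class lies near −0.9 in black and green, and its triangle could not move because the class is 1 cluster. Endothelium, epithelium and erythroid cells move toward 0 when clusters are weighted alike. The green square of erythroid cells lies farther from 0 than the black point, at −0.96.

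Fos (ENSMUSG00000021250), the founding Fos protein of AP-1, was 1340 CPM in Lipo-Clo against 1695 CPM in Lipo-PBS mesenchyme, and 1399 and 1560 CPM in macrophages. It was lower in Lipo-Clo beyond counting error in 10 classes and not resolved in macrophages (−0.16, −0.33 to 0.01) and T or NK cells (−0.27, −0.59 to 0.06). The size differed between classes. It was −1.20 in erythroid cells (341 against 786 CPM), −0.99 in endothelium (564 against 1117 CPM), −0.58 in epithelium (598 against 892 CPM) and −0.12 in perivascular cells (1213 against 1318 CPM). The erythroid and endothelial values depended on the processing. With the same mixture of clusters Fos was −0.60 in erythroid cells and −0.45 in endothelium, and with every deposited cell kept it turned to 0.34 in erythroid cells. Thinned to 1000 UMIs per cell, 31.9% of Lipo-Clo and 47.5% of Lipo-PBS endothelial cells had a Fos UMI. Without thinning these shares were 34.7% and 53.5%. The thinned shares in erythroid cells were 14.3% and 32.2%, and the class includes the haemoglobin-led cluster.

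Fosb (ENSMUSG00000003545), a Fos protein that also pairs with Jun, was lower beyond counting error in 8 classes and higher in 1. The higher value was in macrophages, with 738 CPM in Lipo-Clo against 563 CPM in Lipo-PBS (0.39, 0.13 to 0.65), from 217 and 310 UMIs. The largest difference the other way was in the monocyte or dendritic class, with 141 and 325 CPM (−1.20). Perivascular cells (470 and 434 CPM) and glia (442 and 427 CPM) were not resolved. The difference between these ratios was not tested, and with doublets kept the macrophage value was −0.02.

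Jun (ENSMUSG00000052684), the AP-1 partner that can also pair with itself, was lower beyond counting error in 11 classes, the most of any member, and past 1.5-fold in 7. In macrophages it was 660 CPM in Lipo-Clo against 1006 CPM in Lipo-PBS (−0.61, −0.85 to −0.37). In the monocyte or dendritic class it was 235 and 570 CPM (−1.28). T or NK cells, with 453 and 394 CPM, were the class not resolved. With the same mixture of clusters Jun was −0.35 in endothelium, −0.32 in epithelium and −0.57 in erythroid cells. These were then no longer past 1.5-fold. With every deposited cell kept, Jun turned to 0.60 in erythroid cells.

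Junb (ENSMUSG00000052837), a Jun protein with weaker activation of AP-1 targets, was highest in macrophages (1640 CPM in Lipo-Clo, 1684 CPM in Lipo-PBS) and T or NK cells (1472 and 1723 CPM). Its ratio in macrophages was near 0 (−0.04, −0.20 to 0.12). It was lower in 9 classes and past 1.5-fold in 2, the monocyte or dendritic class and erythroid cells. Jund (ENSMUSG00000071076), the Jun protein known for steady expression in resting cells, departed from the others. It was lower in 5 classes and higher in 3, namely T or NK cells (1712 against 1325 CPM, 0.37), perivascular cells (937 against 763 CPM, 0.30) and glia (1135 against 973 CPM, 0.22). With the same mixture of clusters Jund turned to 0.16 in mesenchyme, 0.16 in endothelium and 0.13 in erythroid cells. TMM scaling turned it to 0.21 in neutrophils. Of the 5 lower values, only that of the monocyte or dendritic class stayed negative in every setting, from −0.89 to −0.36. In B cells it was 1587 and 1492 CPM and in epithelium 817 and 800 CPM, neither resolved. The median of its 12 ratios was −0.09, against −0.62 for Jun and −0.56 for Fos.

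**Figure D3:**
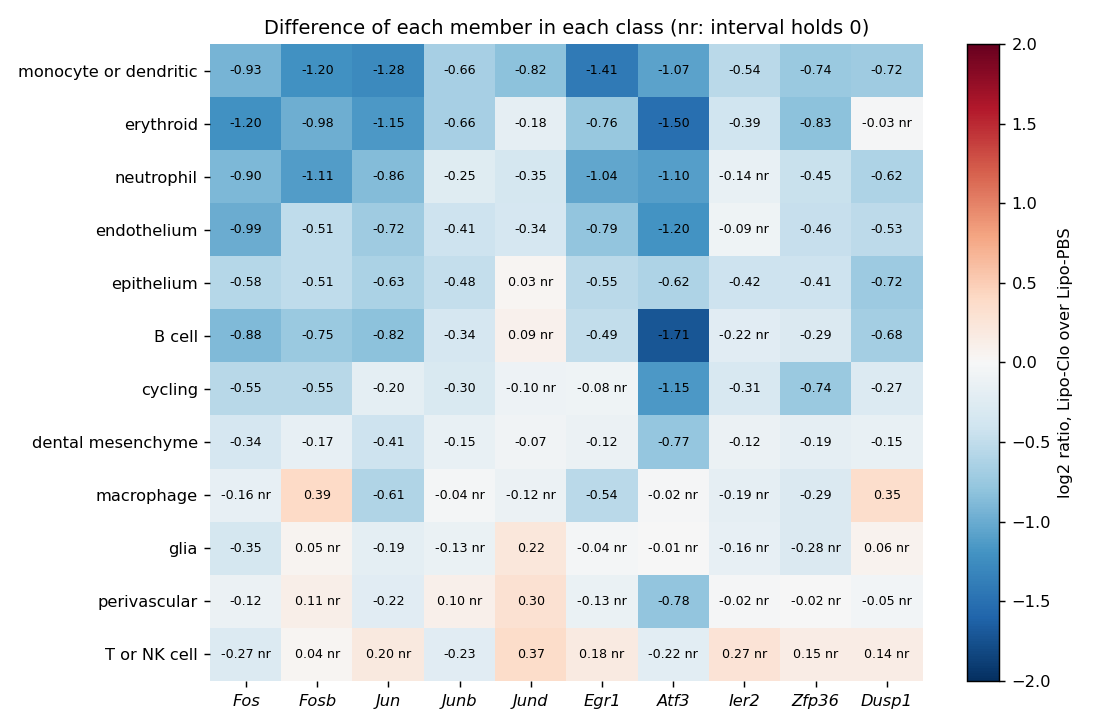
Log2 ratio of Lipo-Clo over Lipo-PBS for each member (columns) in each of the 12 classes (rows, ordered by the summed ratio), blue for lower and red for higher, with "nr" where the 95% counting interval holds 0. Blue fills the rows from monocyte or dendritic to dental mesenchyme except for Jund in epithelium and B cells, and the 5 resolved higher values are Fosb and Dusp1 in macrophages and Jund in glia, perivascular and T or NK cells.

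Egr1 (ENSMUSG00000038418), a zinc-finger factor induced through serum response factor, was highest in macrophages with 1014 CPM in Lipo-Clo against 1477 CPM in Lipo-PBS (−0.54, −0.74 to −0.35). In the monocyte or dendritic class it was 150 and 399 CPM (−1.41), its largest difference. It was lower in 8 classes and not resolved in 4, with 486 and 499 CPM in glia and 567 and 601 CPM in cycling cells. Atf3 (ENSMUSG00000026628), a stress-induced bZIP factor, had levels that ranged widely between classes. It was 742 and 752 CPM in macrophages, 318 and 490 CPM in epithelium, 282 and 485 CPM in perivascular cells, and 25 and 83 CPM in B cells. It was past 1.5-fold lower in 9 of 12 classes, more than any other member, 1 of them B cells, where it was not in use. With the same mixture of clusters Atf3 was −0.10 in mesenchyme and −0.27 in epithelium, no longer past 1.5-fold. With coarser clusters it turned to 0.027 in neutrophils. Macrophages (−0.02), glia (−0.01) and T or NK cells (−0.22) were the classes not resolved.

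Ier2 (ENSMUSG00000053560), a nuclear protein of the early response, was past 1.5-fold in 0 of 12 classes. It was lower beyond counting error in 5, with −0.54 in the monocyte or dendritic class (386 against 561 CPM) as the largest difference and −0.12 in mesenchyme (600 against 654 CPM). Its highest levels were in T or NK cells, with 854 and 710 CPM. Zfp36 (ENSMUSG00000044786) encodes tristetraprolin, which binds AU-rich elements and destabilizes cytokine mRNAs. It was highest in macrophages, with 1348 CPM in Lipo-Clo against 1653 CPM in Lipo-PBS (−0.29). Without thinning, it was found in 79.4% and 92.1% of them, at median depths of 1900 and 2555 UMIs per cell. It was past 1.5-fold lower in the monocyte or dendritic, erythroid and cycling classes.

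Dusp1 (ENSMUSG00000024190), the phosphatase that inactivates p38, JNK and ERK kinases, was likewise highest in macrophages but higher there in Lipo-Clo, with 1126 against 886 CPM (0.35, 0.14 to 0.55), from 331 and 488 UMIs. Of the cells thinned to 1000 UMIs, 59.6% and 51.2% had a Dusp1 UMI, and without thinning 77.0% and 77.2% did. It was lower in 7 classes, with −0.72 in epithelium (244 against 403 CPM) and −0.15 in mesenchyme (556 against 618 CPM). Macrophages are the cells clodronate targets, and their 126 Lipo-Clo and 189 Lipo-PBS cells are those left at PN15.5. Within them Jun, Egr1 and Zfp36 were lower, Fosb and Dusp1 were higher and the other 5 members were not resolved. Jun alone was past 1.5-fold lower, against 18.9% of all genes in use.

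In the monocyte or dendritic class all 10 members were lower beyond counting error and 9 were past 1.5-fold, all but Ier2, against 29.2% of all genes in use in that class. The 8 mesenchymal markers were also lower there, with 6205 CPM in Lipo-Clo against 26097 CPM in Lipo-PBS (−2.07), and 8 of 8 were lower and none at 0. Median depth was 4658 and 3175.5 UMIs per cell. In the 338 of 386 Lipo-Clo and 129 of 224 Lipo-PBS cells with at most 1% of UMIs from those markers, the summed ratio was −0.90. It ranged from −0.94 to −0.41 over all alternatives, with −0.41 under TMM scaling and −0.49 under finer clustering. In neutrophils, by contrast, the same limit on the markers moved the summed ratio from −0.60 to −0.18. Over all alternatives the neutrophil sum ranged from −1.18 to −0.05, and the median of all genes in use in neutrophils was itself −0.28. There 6 members were past 1.5-fold lower, against 31.1% of all genes. The share of markers, of nuclear RNA and of cell states inside these classes in the differences was not tested.

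Epithelium and B cells also differed between their clusters. In epithelium 3 members were past 1.5-fold lower (Jun, Atf3 and Dusp1), against 7.69% of all genes. The cluster led by Amelx, Amtn and Clu had 2452 CPM in Lipo-Clo against 3847 CPM in Lipo-PBS (−0.65), the cluster led by Krt15, Lgals7 and Krt6a had 5011 and 5060 CPM (−0.01), and the third, led by Dsc3, Nkain3 and Nppc, had 11999 and 11558 CPM (0.05). Of the 3 epithelial clusters, the first alone had an interval that left out 0. In B cells the summed ratio was −0.53 in the cluster led by Igll1 and −0.12 in the other, led by Igkc.

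In perivascular cells Atf3 was the member past 1.5-fold lower. Mesenchymal markers moved the other way in T or NK cells (17671 against 9556 CPM) and glia (18711 against 15369 CPM). They were lower in endothelium (7491 against 14393 CPM).

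In dental mesenchyme all 10 members were lower in Lipo-Clo beyond counting error, and 1, Atf3, was past 1.5-fold. Among the 4689 genes in use there, 36.2% were lower beyond counting error and 4.97% past 1.5-fold lower, and their median ratio was −0.01. The summed members had 92358 UMIs in Lipo-Clo against 103076 in Lipo-PBS, a ratio of −0.22 (−0.23 to −0.21). Atf3 was 106 CPM in Lipo-Clo against 182 CPM in Lipo-PBS (−0.77, −0.87 to −0.68). Jun was 919 and 1220 CPM (−0.41, −0.44 to −0.37), next in size, followed by Fos at −0.34. Jund, at 1167 and 1228 CPM, had the smallest difference (−0.07). The 8 mesenchymal markers had nearly equal sums, with 71168 CPM in Lipo-Clo against 71354 CPM in Lipo-PBS. Taken singly, 6 of the 8 were lower in Lipo-Clo, while Col1a1 was higher, with 38591 against 34865 CPM.

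The members varied more between mesenchymal subclusters than between libraries. Across 13 subclusters the summed level ran from 2329 to 16420 CPM in Lipo-Clo and from 2643 to 15534 CPM in Lipo-PBS. Odontoblast-like cells, marked by the dentin gene Dspp, were lowest in both. The fibroblast-like subcluster of Ccl19, Col14a1 and Cd34 was highest in both, followed by that of Clec3b, Mfap5 and Cd34. The subclusters named papilla- or pulp-like lay low, at 3415 and 3754 CPM in Lipo-Clo and 3435 and 3260 CPM in Lipo-PBS.

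The direction also differed between subclusters. The summed members were lower in Lipo-Clo in 7, higher in 3 and not resolved in 3. How often other genes differ within a subcluster was not computed. Periodontal ligament-like cells led by Tnn, Aspn and Crispld2 had 8789 CPM in Lipo-Clo against 10918 CPM in Lipo-PBS (−0.31). Osteoblast- or cementoblast-like cells had 6186 and 7892 CPM (−0.35). Fibroblast-like cells led by Clec3b went the other way, with 14844 and 12112 CPM (0.29, 0.26 to 0.32). The lowest ratio, −0.78, was in the Pde7b-led ligament-like subcluster of 96 and 103 cells.

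The share of fibroblast-like cells differed, at 13.9% of mesenchymal cells in Lipo-Clo against 24.2% in Lipo-PBS. They held 66.4% and 64.7% of all mesenchymal Atf3 UMIs, and 21.99% and 29.6% of the summed members' UMIs. With subclusters in equal proportions in the 2 libraries the summed ratio was −0.10 and that of Atf3 −0.17, so that 0 members were past 1.5-fold. With the coarser clusters treated in that way, an alternative added later, the sum was −0.03. Jun then had the lowest ratio of the 10 members, at −0.33 and −0.26. It was lower beyond counting error in 10 of 13 subclusters and higher in 0, from 0.06 to −0.87. No share of all genes was computed within a subcluster, for this count or those of Fos and Jund that follow. In pooled mesenchyme 36.2% of genes in use were lower beyond counting error and 35.6% higher. Fos was lower in 7 and higher in 1, at −0.22 and −0.17 after weighting. Jund was lower in 3 and higher in 3, and its ratio turned to 0.09 and 0.16. Fosb also turned in both, to 0.0072 and 0.064. In the Clec3b-led cells Jund was 2940 CPM in Lipo-Clo against 2045 CPM in Lipo-PBS (0.52), while Jun was 1756 and 1687 CPM (0.06).

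**Figure D4:**
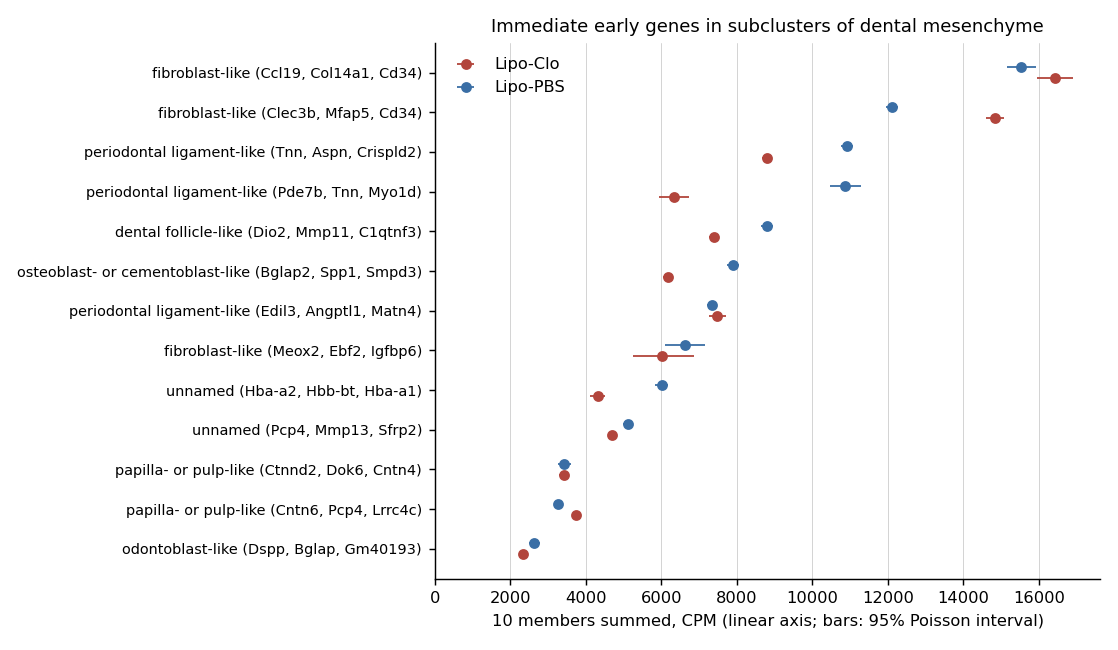
Summed level of the 10 members (CPM, linear axis) in 13 subclusters of dental mesenchyme, labelled by name and leading genes, with 1 point per library and the 95% Poisson interval as a bar. Levels run from 2329 CPM in Lipo-Clo odontoblast-like cells to 16420 CPM in Lipo-Clo Ccl19-led fibroblast-like cells, and the Clec3b-led cells have the higher point in Lipo-Clo while most ligament-like, follicle-like and osteoblast-like cells have it in Lipo-PBS.

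The members' share of a cell's UMIs also differed in mesenchyme. The members made up a median 0.49% of a cell's UMIs in Lipo-Clo against 0.68% in Lipo-PBS. Cells of all subclusters were pooled here, and the proportions of subclusters differed between the libraries. No such share is given within a subcluster. At the 25th percentile the shares were 0.19% and 0.31%, at the 75th 0.95% and 1.16%, and at the 95th 2.09% and 2.19%. At the 99th the order was reversed, with 3.35% in Lipo-Clo against 3.03%. Of the cells thinned to 1000 UMIs (3696 and 3603, with 376 and 260 shallower cells left out), 9.497% in Lipo-Clo against 6.91% in Lipo-PBS had no member UMI. Those with 10 or more were 26.4% and 36.2%, and those with 20 or more 6.63% and 7.74%. A thinned cell held 3.75 and 4.30 of the 10 members on average.

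**Figure D5:**
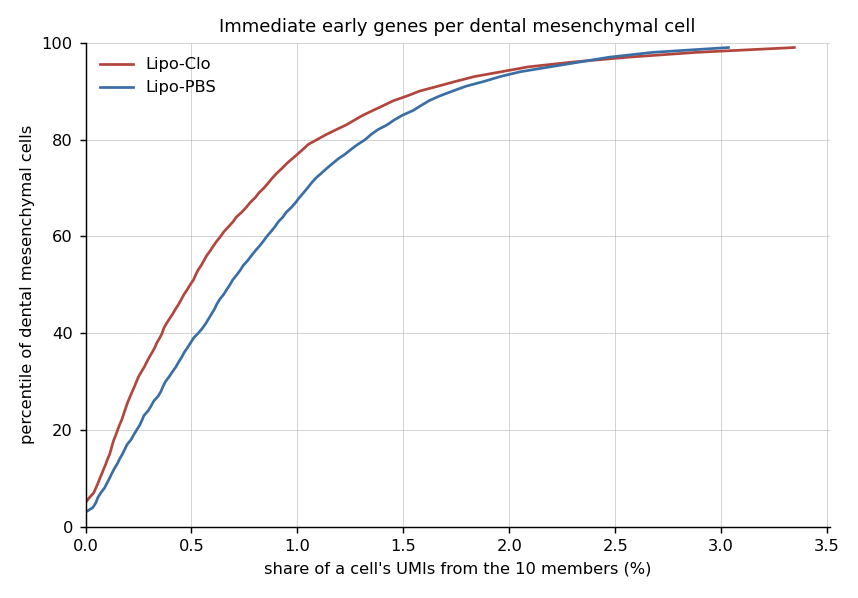
Cumulative distribution over dental mesenchymal cells of the share of a cell's UMIs that came from the 10 members (x axis, percent; y axis, percentile of cells) in Lipo-Clo (4072 cells, red) and Lipo-PBS (3863 cells, blue). The curves are apart at the median (0.49% and 0.68%) and close at the 95th percentile (2.09% and 2.19%). Cells are pooled over subclusters, whose proportions differ between the libraries.

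The members were found together in single cells when all mesenchymal subclusters, which differ in the members' level, were pooled. Values within a subcluster or for other pairs of genes are not given here. In thinned Lipo-PBS mesenchymal cells with a Fos UMI, 68.6% also had Jun, against 38.7% of those without Fos. In Lipo-Clo these shares were 62.2% and 32.3%. Atf3 accompanied Fos in 11.0% of Lipo-Clo cells against 2.73% of those without. As a description over cells of 1 library, the correlation of log counts between pairs of members ran from 0.15 to 0.42 in Lipo-Clo (n = 3696) and from 0.12 to 0.42 in Lipo-PBS (n = 3603). The lowest was Junb with Atf3 in both libraries.

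The wider early response was described in mesenchyme by 49 other early genes, chosen with earlier results of these data known. Of the 30 in use, 18 were lower and 3 higher beyond counting error (all genes in use: 36.2% and 35.6%), 2 were past 1.5-fold lower (all genes: 4.97%), and the median ratio was −0.23. Ccn2, a matrix protein induced by TGF-β and YAP, was 59.6 CPM in Lipo-Clo against 149 CPM in Lipo-PBS (−1.32). Nr4a2, an orphan nuclear receptor, was 45.0 and 68.7 CPM (−0.61). Bhlhe40 (−0.58), Irf1 (−0.47) and Klf6 (−0.45) followed. These are transcription factors of the early response.

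Among 23 genes of the MAP kinase, SRF and CREB pathway that acts on the members' promoters, 16 were in use in mesenchyme. Of these, 11 were lower and 1 higher beyond counting error (all genes in use: 36.2% and 35.6%), and 0 were past 1.5-fold. Mapk8, which encodes JNK1, was 25.3 CPM in Lipo-Clo against 35.7 CPM in Lipo-PBS (−0.50). The SRF coactivator Mrtfa had −0.41, the SRF partner Elk4 −0.37, Braf −0.36 and Rps6ka3 −0.35. Of 12 other bZIP partners 5 were in use. Among them, Atf2 was 44.5 and 60.6 CPM (−0.44), Jdp2 had −0.20 and Maf −0.19. Fosl2, the further Fos protein of mesenchyme, was higher in Lipo-Clo with 217 against 178 CPM (0.29, 0.21 to 0.37). Of 12 mRNAs with AU-rich elements, mostly of cytokines, a kind Zfp36 is known to act on, only Vegfa was in use in mesenchyme (46.8 and 58.4 CPM, −0.32). More of them were in use elsewhere. In macrophages 9 were, and their list summed to 23075 CPM in Lipo-Clo against 19137 CPM in Lipo-PBS (0.27). With 6 in use in each, the list's sum had 0.13 in the monocyte or dendritic class and −0.20 in neutrophils.

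As a readout linked to dissociation, 17 heat shock genes were followed, which are known to be induced with early genes in digested tissue. In mesenchyme 15 were in use, of which 4 were lower and 7 higher beyond counting error (all genes in use: 36.2% and 35.6%) and 0 past 1.5-fold, with a median of 0.04. The list thus went both ways. Its sum was 7005 CPM in Lipo-Clo against 6493 CPM in Lipo-PBS (0.11, 0.10 to 0.12), of which the ubiquitin gene Ubb made up 3267 and 2933 CPM. The co-chaperone Dnajb1 was 222 and 173 CPM (0.36), the mitochondrial Hspe1 363 and 285 CPM (0.35) and Hspa1b, the inducible HSP70, 71.6 and 60.6 CPM (0.24), while Hspd1 (−0.22) and Cryab (−0.20) were lower. In the monocyte or dendritic class the heat shock sum had 0.14 and the median gene −0.10, with 7 of 14 in use lower and 5 higher beyond counting error (all genes: 30.7% and 21.8%). In neutrophils (−0.22) and erythroid cells (−0.10) the sum was lower. It was higher in B cells (0.22), cycling cells (0.18), perivascular cells (0.18) and macrophages (0.10). In endothelium, epithelium, glia and T or NK cells it was not resolved. Of 4 nuclear RNAs in mesenchyme, 3 were lower and 1 was higher beyond counting error: Malat1 was 12587 CPM in Lipo-Clo against 18747 CPM in Lipo-PBS mesenchyme (−0.57), Neat1 had −0.74, Kcnq1ot1 −0.35 and Meg3 0.07. Across classes Malat1 ran from −2.17 in the monocyte or dendritic class, where the summed members had −0.87, to −0.05 in epithelium, where they had −0.45. It was −1.05 in neutrophils and −0.64 in erythroid cells, where the summed members had −0.60 and −0.72. In T or NK cells it was −0.88 and in perivascular cells −0.45, where they had 0.07 and −0.05. What digestion time, damage to cells and nuclear RNA content add to the members' differences was not tested, and with 1 library per condition it cannot be told apart from the treatment.

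Over the 12 classes in 2 libraries, the 8 genes outside every list whose level was most like that of the summed members were Hspa5, Chka, Rbpj, Usp8, Asb8, Rragc, Impact and Fam234a, with Pearson r from 0.895 to 0.840 across 24 points and 12008 genes compared. Hspa5 encodes the chaperone BiP of the endoplasmic reticulum, Chka choline kinase, and Rbpj the transcription factor of Notch signalling. All but Impact were highest in macrophages. The points share libraries and classes, so these values are a description. Each member correlated with the sum of the other 9 at r from 0.61 (Jund) to 0.87 (Fosb).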

How the data were processed

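Single-cell RNA-seq of 2 libraries was used. For each called cell the authors deposited raw UMI counts by gene, from 10x Genomics libraries. The file header names Cell Ranger 8.0.0, while the submitters' processing notes list Cell Ranger 3.1.0, Seurat 3.1.1 and build GRCm39. No later filter is given in the sources used here. Depth was 31053404 UMIs in 9362 cells (Lipo-Clo) and 30537834 in 9653 (Lipo-PBS).

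Cells needed 200 genes and no more than 20% mitochondrial UMIs. Scrublet's automatic threshold called 0 and 1 doublets, so the highest 632 and 633 scores were left out. Counts scaled to 10000 per cell, 2000 variable genes without members, other early or heat shock genes, 30 components and 20 neighbours went into Leiden clustering (scanpy 1.11.5, leidenalg 0.10.2, resolution 1, seed 1), and mesenchyme again at 0.6. A cluster was named from at least 3 markers 2-fold above the 25th percentile of clusters (quantile 0.25), by rules settled after the clusters were seen. For mesenchymal subclusters the median of the subclusters was used in its place. The erythroid name needed 5 markers, and a cycling or dividing name needed 3 among the leading genes. Without replicates no p-values were computed, and sums per class carried exact Poisson or Clopper-Pearson intervals. Scripts were tested on simulated data.

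The members and gene lists were chosen with earlier results of these data known. Text names all members, and from each other list up to 5 genes in use with the largest absolute mesenchymal ratio. Values of 1 gene that this rule would name are not reported here. Alternatives used edgeR 4.0.16 and DESeq2 1.42.0 for scaling factors only.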

Additional observations from a re-analysis of the deposited data

Results flagged for a closer look

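Some members were higher in Lipo-Clo in a class while lower in most others, and the difference between classes was not tested. Fosb was higher in macrophages (0.39 on the log2 scale), against lower in 8 classes. Dusp1 was higher in macrophages (0.35), against lower in 7. Jund was higher in T or NK cells (0.37), perivascular cells (0.30) and glia (0.22), against lower in 5 classes. Those 5 lower values turned in at least 1 setting, except in the monocyte or dendritic class.

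The summed members were higher in Lipo-Clo in 3 mesenchymal subclusters and lower in 7, which was likewise not tested. The higher ratios were 0.29 in the subcluster led by Clec3b, 0.20 in that led by Cntn6 and 0.080 in that led by Ccl19.

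Cells outside the comparisons also held the members. In the unnamed cluster the summed level was 4624 CPM in Lipo-Clo against 6989 CPM in Lipo-PBS. In the cells left out by the filters it was 3903 and 4382 CPM.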

How the results depend on the processing

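No paired analysis was possible because 1 library stood for each condition. Of 1864 values recomputed over 18 settings, 45 turned from a direction that had been resolved, and the cause was not tested. The other 1819 did not all keep their sign, because a value not resolved at first was never counted as turned. Dusp1 in erythroid cells, for example, ran from −0.25 to 1.04, and the sum in T or NK cells from −0.21 to 0.11. The 1819 also include values that a setting could not move, such as classes of 1 cluster under the same mixture. In mesenchyme the number of members past the fold limit was 1. It was 0 with the same mixture of clusters or of subclusters, 3 at the lower fold limit and 0 at 2-fold. The summed ratio there was −0.22. It was −0.19 with TMM factors, −0.26 without mitochondrial, haemoglobin and ribosomal protein genes in the totals, −0.25 as a mean over cells, −0.10 with the same subclusters and −0.034 with the same clusters. It was −0.19 without Fos, the member with the most UMIs, and −0.19 with the unnamed cluster added. The number of classes past the limit was 4. It was 2 with doublets kept, with a stricter filter (500 genes, 10% mitochondrial), with every deposited cell, at Leiden resolution 2, as a mean over cells, with thinned cells, without the member with the most UMIs, with the same clusters and in cells with few mesenchymal markers. It was 1 at Leiden resolution 0.5, with the listed genes allowed in clustering and with TMM factors, 7 at the lower fold limit and 0 at 2-fold.

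Most values that turned were in erythroid cells. With every deposited cell kept these were Fos 0.34, Fosb 0.47, Jun 0.60, Junb 0.67, Jund 0.77, Egr1 1.05, Ier2 0.90, Zfp36 1.03 and the sum 0.70. At resolution 0.5 they were Junb 0.10, Jund 0.42, Egr1 0.33, Ier2 0.027, Zfp36 0.27 and the sum 0.034, and Atf3 in neutrophils was 0.027. With the listed genes allowed they were Junb 0.012, Jund 0.39, Egr1 0.27, Ier2 0.037 and Zfp36 0.18, and Atf3 in neutrophils was 0.026. At resolution 2 they were Jund 0.28 and Egr1 0.17, and Jund was 0.21 with the stricter filter and 0.030 with TMM. With the same clusters, Jund was 0.13 in erythroid cells and 0.16 in endothelium, and in mesenchyme Fosb was 0.064, Jund 0.16, Egr1 0.025, Ier2 0.066 and Dusp1 0.074. With the same subclusters Fosb was 0.0072 and Jund 0.092. In neutrophils TMM gave Junb 0.30, Jund 0.21 and Zfp36 0.10, DESeq2 factors gave Junb 0.036, thinning gave Junb 0.082 and Zfp36 0.018, and few mesenchymal markers gave Jund 0.10. Thinning gave Ier2 0.20 in cycling cells, the mean over cells gave Zfp36 0.14 in B cells, and doublets kept gave Fosb −0.020 in macrophages. Small classes, such as macrophages with 126 and 189 cells, limit the precision. Alternatives on mixtures of clusters, the unnamed cluster, the subcluster led by haemoglobin genes and mesenchymal markers were chosen after seeing the data.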
